A study of Mus musculus with 8 samples.

Results

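C1q macrophages of the aortic wall were taken as barcodes with at least 3 UMIs of the complement C1q genes (C1qa, C1qb and C1qc together) and at least 2 UMIs of the myeloid genes Tyrobp, Fcer1g and Lyz2. A UMI, or unique molecular identifier, stands for 1 captured RNA molecule. Barcodes with any UMI of the T cell genes Cd3d, Cd3e, Cd3g and Trbc2 or the B cell genes Cd79a and Cd79b were left out, as were those with 1% or more of their gene UMIs in the smooth muscle genes Acta2, Tagln and Myh11. The rule was applied to the 24455 of 48467 deposited barcodes that had at least 500 genes, at most 20% mitochondrial UMIs and under 5% haemoglobin UMIs. It chose 91 barcodes, or 0.372% of them (exact 95% interval 0.300 to 0.457%), and the remaining 24364 barcodes are the comparison group. Whether each of these holds a cell was not tested, so values in other barcodes are not values of other aortic cells alone. All tissue came from the ascending thoracic aorta of 3 wild-type mice near 12 weeks of age, with no treatment and no other genotype. It was digested for 60 min at 37 °C with collagenase and elastase, filtered, and loaded as a pooled droplet single-cell RNA sequencing run. The sample records give 15000 cells loaded. A hashtag antibody, whose barcode is counted beside the genes, marks the mouse of 11 weeks (hashtag 1), 12 weeks (hashtag 2) or 13 weeks (hashtag 3). Each age is 1 animal, so age and animal cannot be told apart. The p-values below measure the spread between 3 hashtag samples, or between 2 where a setting leaves out or loses an animal. Library and barcode could not be matched, since 1 matrix holds all barcodes, and no barcode occurs in it more than once.

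Macrophages of the vessel wall engulf dying cells and debris, take up lipoprotein and present antigen, and they sit mostly in the adventitia. C1q is the recognition part of the classical complement pathway, assembled from A, B and C chains that are encoded side by side, and tissue macrophages are its main source. Resident macrophages of arteries are known in mice for the receptors Lyve1, Folr2, Mrc1 and Timd4, while cells of more recent monocyte origin are known for Ccr2 and often for MHC class II, the molecules that present peptides to helper T cells.

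The 3 chains were read together in these barcodes. Their genes lie on mouse chromosome 4, C1qb at chr4:136880126-136886200, C1qc at chr4:136889801-136892936 and C1qa at chr4:136895916-136898844 (RefSeq, GRCm38.p6). The promoter windows of C1qb and C1qc are shown because these genes chose the barcodes, and that of Pf4, which encodes platelet factor 4, because it is a marker of these cells that the rule did not use. Each runs 5′ to 3′ from 250 bases before to 50 after the start of the gene. C1qb is at chr4:136886151-136886450 on the minus strand, C1qc at chr4:136892865-136893164 on the minus strand and Pf4 at chr5:90772185-90772484 on the plus strand. Capitals mark a match of the PU.1 motif GAGGAAGT, here on the opposite strand as ACTTCCTC.
C1qb promoter: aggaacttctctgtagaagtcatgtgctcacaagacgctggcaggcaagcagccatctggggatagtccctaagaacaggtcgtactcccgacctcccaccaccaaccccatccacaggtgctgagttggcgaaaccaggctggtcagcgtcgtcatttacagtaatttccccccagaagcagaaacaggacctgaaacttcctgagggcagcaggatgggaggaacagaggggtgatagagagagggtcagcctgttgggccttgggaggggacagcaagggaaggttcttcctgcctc
C1qc promoter: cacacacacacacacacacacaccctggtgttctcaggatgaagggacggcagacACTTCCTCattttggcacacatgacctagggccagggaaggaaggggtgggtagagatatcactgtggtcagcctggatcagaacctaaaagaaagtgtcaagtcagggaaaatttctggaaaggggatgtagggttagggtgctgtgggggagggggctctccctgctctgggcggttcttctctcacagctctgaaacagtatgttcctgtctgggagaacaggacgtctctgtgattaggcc
Pf4 promoter: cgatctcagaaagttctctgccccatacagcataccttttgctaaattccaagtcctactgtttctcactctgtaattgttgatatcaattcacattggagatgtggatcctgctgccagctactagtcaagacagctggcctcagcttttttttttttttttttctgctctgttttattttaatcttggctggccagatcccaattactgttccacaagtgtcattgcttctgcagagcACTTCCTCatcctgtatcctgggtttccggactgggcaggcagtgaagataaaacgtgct
PU.1, encoded by Spi1, is the lineage factor of macrophages. The search covered both strands for GAGGAAGT, for the AP-1 motif TGACTCA and for the E-box CACGTG, which do not overlap 1 another in these windows. The PU.1 letters began 195 bases before the start in C1qc and 10 bases before it in Pf4, and none of the 3 motifs was found in the C1qb window or in those of Lyz2 and Mrc1. Of 32851 RefSeq promoter windows of this length, 3.20% held the PU.1 letters, 5.20% those of AP-1 and 7.15% those of the E-box. A match describes letters and is not a binding site, and the C1qa promoter is not shown.

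The rule fixed the C1q level, so its values are a description. Members held a median of 32 C1q UMIs (3 to 165), or 1.02% of their gene UMIs. C1qa gave 1502 UMIs, C1qb 1093 and C1qc 831, and 86 of the 91 barcodes (94.5%) had all 3 chains, against 63 of 24364 other barcodes (0.259%). Per hashtag sample, C1qa stood at 4415, 4036 and 4366 CPM, that is UMIs per 1000000 gene UMIs, C1qb at 2386, 3427 and 3494 CPM, and C1qc at 2511, 2628 and 2439 CPM. The samples lay close together for C1qa and C1qc, and hashtag 1 was lowest for C1qb. C1qa outnumbered C1qc 1.81 to 1 in members and likewise 1.81 to 1 in the other barcodes. The 24364 other barcodes together held 3420 C1q UMIs, about as many as the 3426 of the 91 members, with a median of 0 per barcode. Lyz2, the lysozyme of myeloid cells, stood at 6089, 3826 and 5130 CPM in the 3 samples and was seen in 88 of 91 barcodes.

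Of the 237 barcodes with at least 3 C1q UMIs, the myeloid condition removed 63, the T and B cell conditions 10 and the smooth muscle limit 73. The 7 members at 0.5 to 1% smooth muscle UMIs all held Csf1r, the receptor for macrophage colony-stimulating factor, and had Mrc1 at 2070 CPM. The 17 barcodes just outside, at 1 to 2%, held Csf1r in 5 and Mrc1 at 92.6 CPM, with a median of 6 C1q UMIs. The 56 further outside, at 2% or more, held Csf1r in 17 and Mrc1 in 26, with Mrc1 at 259 CPM and a median of 5 C1q UMIs. At the C1q threshold, Csf1r was in 3 of the 5 members with 3 to 5 C1q UMIs and in 0 of the 3 barcodes with 1 or 2. These edges are given as they are, without a test. Members had a median of 3200 gene UMIs (1601 to 14347), 1391 genes, 12.5% mitochondrial and 0.239% smooth muscle UMIs, beside 3478 UMIs, 1474 genes, 13.1% and 2.25% in other barcodes.

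Among the markers given for these cells, Mrc1 and Pf4 played no part in the rule. Mrc1, the mannose receptor, was seen in 79 of 91 members (86.8%) and in 1.83% of other barcodes, and after thinning every barcode to 1000 UMIs in 67.0% and 0.71%. Pf4 was seen in 82 members (90.1%) and in 4.72% of other barcodes, or 72.5% and 1.67% after thinning. Csf1r was seen in 85 members (93.4%) and in 1.06% of other barcodes. Defining genes of several other cells were at or near 0: the neutrophil list gave 16 UMIs with S100a8, Retnlg and Cxcr2 at 0, and the mesothelial list 2. The T and NK list gave 7, but the rule itself had set 4 of its genes to 0. The dendritic list gave 32 UMIs, or 90.3 CPM in members and 19.1 CPM in others, with Flt3, Xcr1, Clec9a and Ccr7 at 0. Its lectin Cd209a was higher, at 88.1, 129 and 39.6 TMM-scaled CPM in members and 0.136, 0.294 and 0.335 in others (log2 fold change 8.02 ± 0.79, edgeR adjusted p = 0.00020). Stromal RNA was present too, since 15 members held 1% or more of their UMIs in the fibroblast and endothelial lists. These 15 contained 845 of the 872 Dcn UMIs of all members and had a median of 5724 gene UMIs, against 3044.5 in the other 76. Whether they are pairs of cells in 1 droplet was not tested, and results that rest on them are given with and without them.

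Hashtag antibodies gave a readout that the rule did not use. With HTODemux, which sets a background threshold for each hashtag, 60 of 91 members (65.9%, exact 95% interval 55.3 to 75.5%) carried a single hashtag, against 3966 of 24364 other barcodes (16.3%, 15.8 to 16.7%). A further 31 members (34.1%) carried several and 0 carried none, which allows a share of up to 3.30%, while 39.0% of other barcodes carried none. A caller on the ratio of each hashtag to background found a single hashtag on 84 members (92.3%) and on 10.2% of other barcodes, and none on 89.8% of the others. It gave a single hashtag to 25 of the 31 members that HTODemux placed on several, and the 59 members called single by both received the same hashtag from both. The highest hashtag made up a median of 70.7% of hashtag UMIs in members and 45.1% in other barcodes (quartiles 43.6 and 47.6%). Hashtag UMIs had medians of 1471 and 817. Of 185 barcodes with T or B cell transcripts, 55.7% were single by HTODemux and 71.9% by the ratio, so a high single-hashtag share was not limited to macrophages. Members are cells and not replicates, so these shares carry counting error only and no test.

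**Figure D1:**
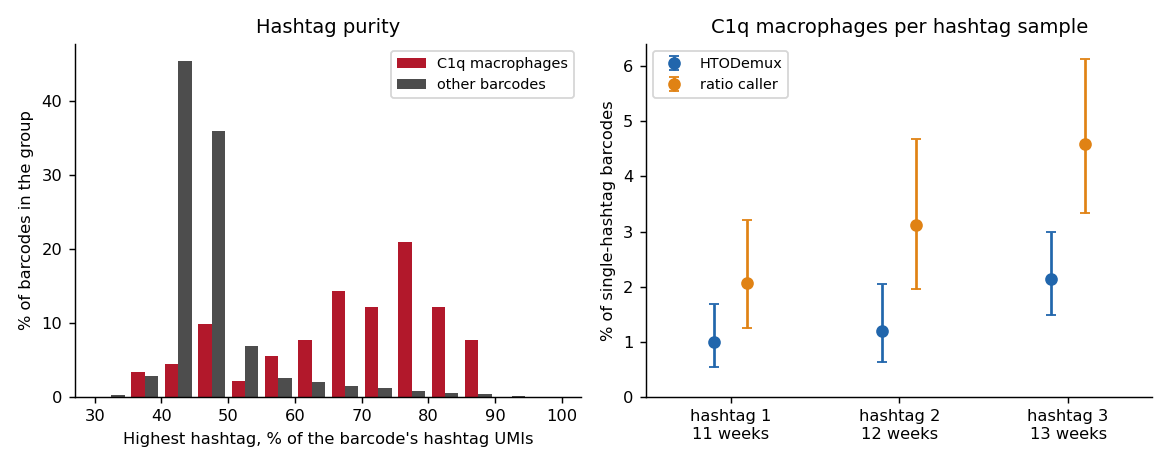
The left panel shows the share of barcodes (%) by how much of their hashtag UMIs the highest hashtag took, for C1q macrophages (red, n = 91) and other barcodes (grey, n = 24364), and the macrophages lie mostly above 60% while the others pile up near their median of 45.1%. The right panel gives C1q macrophages as a percentage of single-hashtag barcodes at 11, 12 and 13 weeks with exact 95% intervals for both callers, and hashtag 3 is highest with each.

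By HTODemux, C1q macrophages made up 14 of 1397 single-hashtag barcodes at 11 weeks (1.00%, exact 95% interval 0.549 to 1.68%), 13 of 1085 at 12 weeks (1.20%, 0.639 to 2.04%) and 33 of 1544 at 13 weeks (2.14%, 1.48 to 2.99%). Their mean was 1.45% ± 0.607 (SD, n = 3 animals). The ratio caller gave 2.06%, 3.12% and 4.58%, with hashtag 3 again highest and a mean of 3.25%. Over all barcodes, whatever their hashtag, the share was 0.372%, so the level depends on which barcodes enter the denominator. Members more often kept a single hashtag than other barcodes did, and with 1 animal per age no test was made.

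Expression was compared between the summed UMIs of single-hashtag members and of the other single-hashtag barcodes of the same animal. The member sums held 47788, 47569 and 130792 UMIs in hashtags 1, 2 and 3, and the other sums 7176587, 6510743 and 8612506. With edgeR's quasi-likelihood test and Benjamini-Hochberg adjustment over 11299 genes, 1055 genes (9.34%) were higher in C1q macrophages and 588 (5.2%) were lower at an adjusted p under 0.05. The barcodes were chosen on macrophage transcripts and against smooth muscle ones, so differences in genes that go with either follow in part from the choice, and the counts below describe the members. The filter on low counts asked for enough UMIs in at least 3 sums. A gene near 0 in the other sums was tested only if all 3 member sums held it, which favours a call as higher. This limits the list counts below. Without the filter, 1046 of 19574 genes were higher and 529 lower. Scaling mattered: with TMM over all genes, which lowers the median log2 fold change of all genes by 0.41, 793 genes were higher and 951 lower, and DESeq2 gave 913 and 676. Leaving out hashtag 3, which supplies 33 of the 60 members, left 0 calls by edgeR, although 1868 genes had an unadjusted p under 0.05; leaving out hashtag 1 left 461 higher and 216 lower, and leaving out hashtag 2 left 358 and 134. Against only those other barcodes with under 1% smooth muscle UMIs, 699 were higher and 415 lower among 8036 genes.

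Genes of macrophage identity were higher throughout: 25 of 25 tested were called higher, with a median log2 fold change of 6.31 beside 0.01 over all genes. Csf1r stood at 1057, 1120 and 943 CPM (TMM-scaled, as are the CPM values that follow) in the member sums of hashtags 1, 2 and 3, against 5.42, 4.84 and 5.14 CPM in the other sums. The log2 fold change was 7.64 ± 0.20 (SE; edgeR adjusted p = 9.2e-07). Adgre1, which encodes the macrophage surface protein F4/80, had 198, 388 and 341 CPM in members and 1.36, 1.03 and 2.12 CPM in others. Maf, a transcription factor of differentiated macrophages, was at 1057, 1292 and 626 CPM in members and 31.6, 32.7 and 32.6 CPM in others. Hashtag 3 was lowest among the members. Spi1, the gene of PU.1, showed a log2 fold change of 6.82 ± 0.50 (edgeR adjusted p = 5.7e-05).

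**Figure D2:**
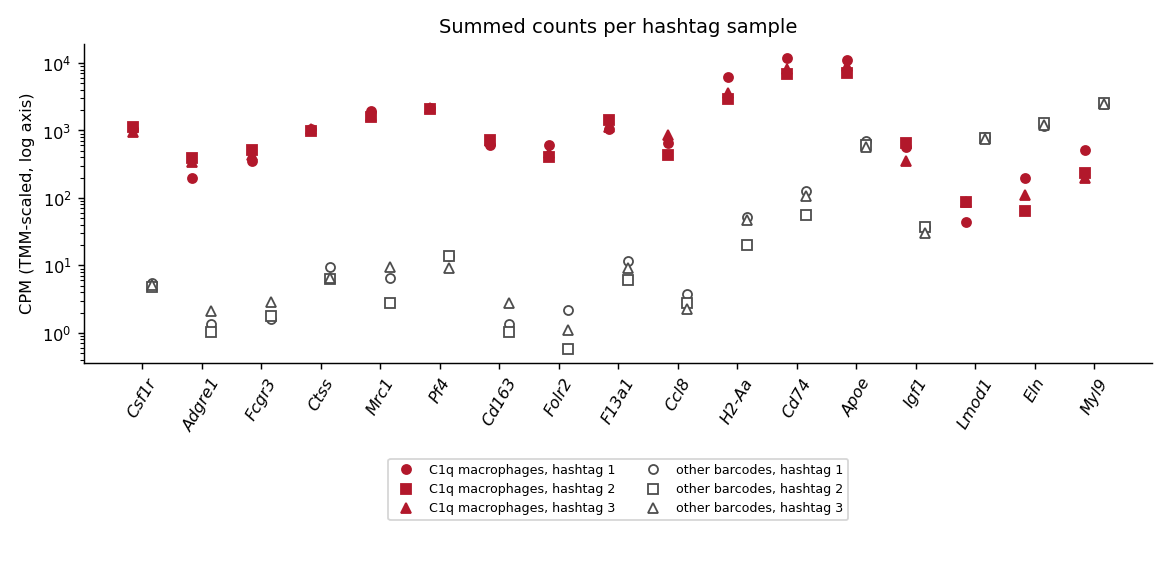
TMM-scaled CPM (log axis) of 17 genes in the summed counts of C1q macrophages (filled red) and other barcodes (open grey), with a symbol for each hashtag sample. For macrophage genes such as Csf1r and Pf4 every red symbol stands far above every grey one, and for Lmod1, Eln and Myl9 it stands below.

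The resident programme was present in every animal, with 17 of 17 tested genes higher and a median log2 fold change of 7.04. Selenop, a selenium carrier, was the most abundant, at 3811, 2175 and 2552 CPM in members and 271, 261 and 250 CPM in others. Pf4 was the steadiest of the genes named here, at 2137, 2110 and 2148 CPM in members against 13.7, 13.6 and 9.17 CPM in others (log2 fold change 7.49 ± 0.20, edgeR adjusted p = 9.2e-07). Mrc1 followed at 1916, 1594 and 1665 CPM in members and 6.50, 2.79 and 9.61 CPM in others (8.10 ± 0.31, adjusted p = 2.5e-06). Cd163, the scavenger receptor for haemoglobin bound to haptoglobin, had 617, 711 and 705 CPM in members and 1.36, 1.03 and 2.79 CPM in others. Folr2, folate receptor beta, had 617, 409 and 460 CPM in members and 2.17, 0.587 and 1.12 CPM in others. F13a1, the A chain of coagulation factor XIII, had 1035, 1421 and 1110 CPM in members and 11.5, 6.16 and 9.28 CPM in others. The 3 animals differed by less than 2-fold within each of these genes among members. Lyve1, the hyaluronan receptor, was lower in level, at 374, 345 and 404 CPM in members against 3.93, 18.8 and 5.48 CPM in others, the hashtag 2 value standing highest among the others. Timd4, a receptor for phosphatidylserine on dying cells, rested on few molecules, at 132, 86.1 and 71.3 CPM in members (log2 fold change 7.97 ± 0.78, adjusted p = 0.00021). Ccl24, Cd209g and Cd209f, an eotaxin and a pair of C-type lectins, had log2 fold changes of 8.77 ± 0.52, 8.69 ± 0.47 and 8.19 ± 0.34. Gas6, a bridging ligand for dying cells, was the weakest, at 0.68 ± 0.17 (adjusted p = 0.029), and at 0.24 with an adjusted p of 0.42 once TMM ran over all genes. Vsig4 was too sparse to test, with UMIs in 6 of 91 members.

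Per barcode, the resident genes were found in part of the members. Cd163 was seen in 50 of 91 (54.9%), Folr2 in 46 (50.5%), Lyve1 in 40 (44.0%), Ccl8 in 26 and Timd4 in 15 (16.5%), against 0.67%, 0.69%, 1.65%, 1.40% and 0.15% of other barcodes. After thinning to 1000 UMIs these shares were 33.0%, 31.9%, 22.0%, 19.8% and 8.8% of members, so a missing UMI at this depth does not show that a cell lacks the transcript.

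Antigen presentation genes were higher in 10 of 10 tested, with a median log2 fold change of 6.52, and H2-DMb2 was too sparse to test. H2-Aa, an alpha chain of MHC class II, had 6256, 2972 and 3638 CPM in members and 51.8, 19.96 and 47.3 CPM in others (log2 fold change 6.77 ± 0.22, edgeR adjusted p = 1.2e-06). Cd74, the invariant chain that guides class II through the cell, had 11652, 6934 and 8014 CPM in members and 125, 55.3 and 107 CPM in others. In both genes hashtag 1 was highest among members. H2-DMa and H2-DMb1, which encode the chaperone that loads peptide, reached log2 fold changes of 5.63 ± 0.38 and 4.95 ± 0.39. Cd86, a costimulatory ligand, was even across animals, at 132, 151 and 143 CPM in members and 0.678, 0.147 and 1.68 CPM in others.

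Receptors that read antibody or hold the cell back through inhibitory motifs were higher in 16 of 16. Fcgr3, an activating receptor for IgG, had 352, 517 and 436 CPM in members and 1.63, 1.76 and 2.91 CPM in others (log2 fold change 7.62 ± 0.32, adjusted p = 3.6e-06). Fcgr1, Fcgr4 and Lilra5 had log2 fold changes of 7.48 ± 0.77, 7.73 ± 0.74 and 7.86 ± 0.61. Trem2, a lipid-sensing receptor, was at 176, 151 and 230 CPM in members and 1.49, 3.38 and 1.68 CPM in others. Scavenging and efferocytosis genes were higher in 11 of 15 tested. Mertk, Axl, Lrp1 and Itgav did not pass: Mertk, the receptor that binds dying cells through Gas6, had 88.1, 64.6 and 79.3 CPM in members and 40.0, 44.6 and 46.2 CPM in others (log2 fold change 0.81 ± 0.35, adjusted p = 0.18). Against other barcodes with under 1% smooth muscle UMIs it passed (1.87, adjusted p = 0.016). Its level in other barcodes was a sizeable part of that in members, unlike that of Mrc1 or Cd163.

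Complement genes outside C1q were mixed, with 6 of 14 higher, 0 lower and a median log2 fold change of 1.16. Among the called genes were the receptors C3ar1 (7.12 ± 0.49), C5ar1 (7.53 ± 0.39) and Itgam (7.17 ± 0.48), properdin or Cfp (7.04 ± 0.37) and C4b (4.11 ± 0.25). C5ar1, the receptor of the anaphylatoxin C5a, had 176, 172 and 254 CPM in members and 1.08, 0.734 and 1.34 CPM in others. Cfp, which stabilises the alternative convertase, had 286, 301 and 262 CPM in members and 2.71, 1.32 and 2.24 CPM in others. Both were below 3 CPM in the others of every animal. C3, the central component, had 220, 603 and 309 CPM in members and 257, 255 and 229 CPM in others, which overlapped (0.56 ± 0.26, adjusted p = 0.22). The count of 0 lower rests on the stromal members in the sums, which are only part of the 15. Leaving them out kept 12, 12 and 28 of the 14, 13 and 33 summed barcodes of hashtags 1, 2 and 3. Without them 3 genes were lower by edgeR, C3 (-3.09, adjusted p = 0.0012), C1s1 (-3.22, adjusted p = 0.027) and Serping1 (-2.86, adjusted p = 0.00016). Against other barcodes with under 1% smooth muscle UMIs, 5 were higher and 3 lower, C3 among them (-1.50, adjusted p = 0.0056).

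Lysosomal genes were higher in 16 of 19, with a median log2 fold change of 2.39. Cathepsin S, or Ctss, which trims the invariant chain, had 1057, 991 and 1054 CPM in members and 9.35, 6.31 and 6.48 CPM in others (7.15 ± 0.21). Ctsc, an activator of granule proteases, had 1344, 1228 and 1086 CPM in members and 22.1, 19.2 and 21.0 CPM in others. Ctsb, abundant in other cells as well, was at 2093, 1852 and 2219 CPM in members and 286, 272 and 290 CPM in others (2.86 ± 0.13). Ctsd, Ctsl and Cd63 did not pass, Ctsd with 286, 323 and 333 CPM in members and 255, 268 and 252 CPM in others. Without the stromal members Ctsl was lower (-1.20, adjusted p = 0.014).

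Lipid handling genes split, with 7 of 16 higher, 3 lower and 6 not passing. Apoe, the apolipoprotein that carries cholesterol from cells, was among the highest transcripts of the members, at 11058, 7107 and 8878 CPM against 699, 601 and 563 CPM in others (log2 fold change 3.85 ± 0.13, adjusted p = 1.7e-06). Abca1, the cholesterol exporter, had 132, 345 and 246 CPM in members and 32.1, 30.8 and 34.8 CPM in others. Lgals3, or galectin 3, had 198, 151 and 246 CPM in members and 26.8, 22.6 and 23.8 CPM in others. Cd9, Fabp5 and Fabp4 were lower, Cd9 at 308, 215 and 484 CPM in members against 737, 791 and 762 CPM in others (-1.10 ± 0.23, adjusted p = 0.014). Against other barcodes with under 1% smooth muscle UMIs, Cd9 did not pass (-0.51, adjusted p = 0.32). Spp1 and Gpnmb, genes of foamy macrophages, did not pass: Spp1 had 0, 0 and 31.7 CPM in members and 14.0, 22.7 and 1.56 CPM in others. Cd36, a receptor for oxidised lipoprotein, was called higher (0.91 ± 0.22, adjusted p = 0.025), but stood at 0.49 with an adjusted p of 0.25 with TMM over all genes and at -0.17 with ratio calls, and was lower against other barcodes with under 1% smooth muscle UMIs (-1.18, adjusted p = 0.0081).

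**Figure D3:**
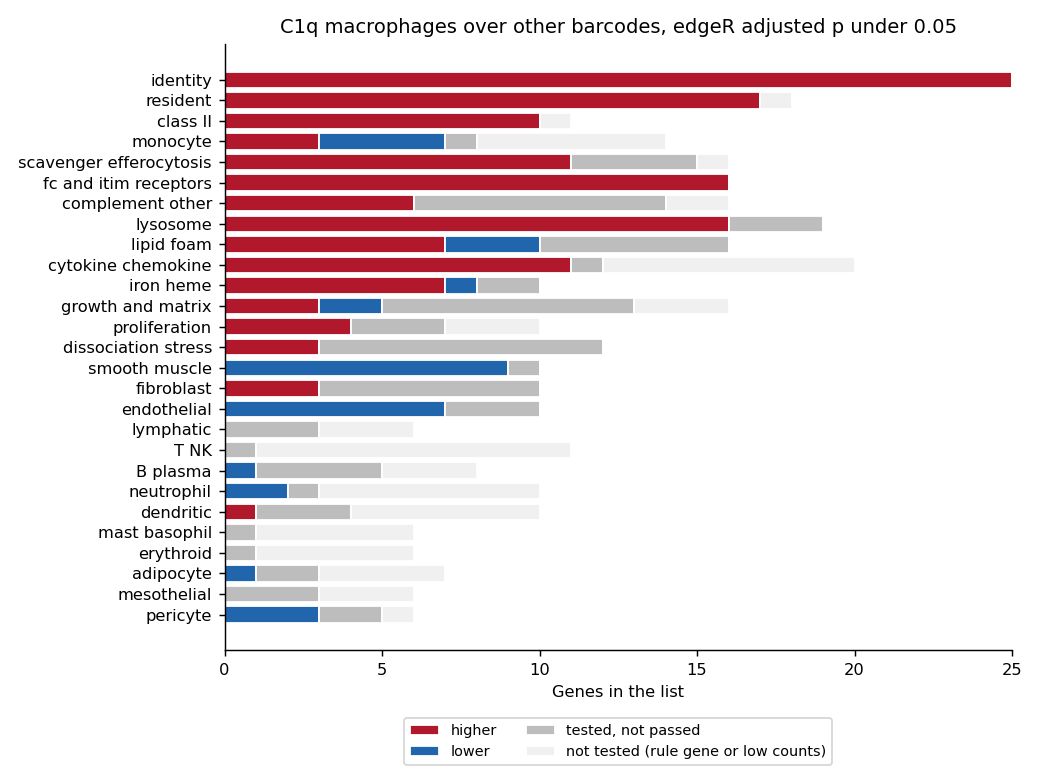
Number of genes in each list that were higher (red), lower (blue), tested without passing (grey) or not tested (pale) in C1q macrophages over other barcodes, by edgeR at an adjusted p under 0.05. Identity, class II and Fc receptor lists are red in every tested gene, and smooth muscle, endothelial and pericyte lists hold no red.

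Iron genes were higher in 7 of 10, with Fth1 lower. The ferritin light chain Ftl1 was at 3943, 4006 and 4043 CPM in members and 550, 516 and 492 CPM in others (2.95 ± 0.12), and the heavy chain Fth1 at 7511, 6590 and 8236 CPM in members and 10609, 10878 and 10483 CPM in others (-0.52 ± 0.11, adjusted p = 0.015). The chains thus differed in direction, although Fth1 stood at 0.67 against other barcodes with under 1% smooth muscle UMIs. Slc40a1, the iron exporter ferroportin, and Hmox1, which degrades haem, had log2 fold changes of 5.98 ± 0.50 and 4.68 ± 0.50. Of 13 growth factor and matrix genes, Igf1, Tgfbi and Mmp9 were higher and Hbegf and Ecm1 lower. Neither of the lower genes passed against other barcodes with under 1% smooth muscle UMIs (adjusted p = 0.065 and 0.21). Igf1, insulin-like growth factor 1, had 573, 646 and 357 CPM in members and 37.4, 37.0 and 29.8 CPM in others (3.86 ± 0.22). Hbegf had 0 UMIs in the member sums and 48.6 ± 8.21 CPM (SD, n = 3) in others, so no fold is given.

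Monocyte genes did not move together, with 3 of 8 tested higher, 4 lower and a median log2 fold change of -0.31. Cx3cr1, the fractalkine receptor, had 396, 452 and 238 CPM in members and 0.949, 0.881 and 3.35 CPM in others (7.48 ± 0.59, adjusted p = 8.6e-05). Ccr2, the receptor that draws monocytes from blood, was called higher on 6 UMIs, at 66.1, 43.1 and 7.93 CPM in members and 1.90, 1.47 and 1.56 CPM in others (4.15 ± 0.94, adjusted p = 0.018), and lost its call with the ratio caller (2.14, adjusted p = 0.15). The lower genes Fn1, Vcan, S100a4 and S100a6 are also expressed by stromal cells, S100a6 at 793, 1184 and 856 CPM in members and 2356, 2527 and 2440 CPM in others. S100a4 did not pass against other barcodes with under 1% smooth muscle UMIs (-1.03, adjusted p = 0.20). Ly6c2 and Chil3 were too sparse to test. In 6 of 91 members a Ccr2 UMI was found.

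Of 20 chemokine and cytokine genes 12 were tested and 11 of these were higher, with levels uneven between animals. Il1a, Tnf, Il6, Il10, Cxcl1, Cxcl2, Cxcl10 and Ccl3 did not meet the filter on low counts. Ccl8, a ligand of Ccr family receptors, had 661, 431 and 856 CPM in members and 3.79, 2.79 and 2.24 CPM in others (7.84 ± 0.33, adjusted p = 3.6e-06). Ccl4 had 22.0, 43.1 and 872 CPM in members and 0.136, 0.881 and 1.79 CPM in others, so hashtag 3 alone was high. Summed over the list of 20 genes, members held 1800, 1493 and 5207 CPM, against 82.6, 93.2 and 98.9 CPM in others. The list of dissociation stress genes moved in the same way, at 1235, 1430 and 3678 CPM in members of hashtags 1, 2 and 3 and 1747, 1746 and 1995 CPM in others, and the part of these in the cytokine levels was not tested. In that list 3 of 12 genes were higher, among them the heat shock genes Hspa1a (1.89 ± 0.29) and Hspa1b (2.30 ± 0.36), and Fos did not pass (0.35 ± 0.26, edgeR adjusted p = 0.43). Both heat shock genes were uneven between animals, at 243 ± 199 and 260 ± 263 CPM (SD, n = 3) in member sums. Single barcodes of hashtag 3 held 23 and 11 Hspa1a UMIs.

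Genes of other cell types were mostly lower or near 0. Of 10 smooth muscle genes 9 were lower and Des did not pass, with Lmod1 at 44.1, 86.1 and 87.2 CPM in members and 787, 785 and 759 CPM in others (-3.33 ± 0.24, adjusted p = 5.9e-05). Of 10 endothelial genes 7 were lower, and of 5 pericyte genes 3. The rule limits smooth muscle UMIs in members alone, so the lists were also set against other barcodes with under 1% of those UMIs. There 2 of 9 smooth muscle genes were lower, Eln (-1.77, adjusted p = 0.013) and Mgp (-2.22, adjusted p = 0.00030), while Lmod1 stood at -0.73 (adjusted p = 0.21) and Cnn1 at -0.01 (adjusted p = 0.99). In that setting 0 of 5 pericyte genes passed by edgeR, with Rgs5 at -1.80 (adjusted p = 0.053), Abcc9 at -1.06 (adjusted p = 0.11) and Cspg4 at -0.97 (adjusted p = 0.51), and 10 of 10 endothelial genes were lower. In the fibroblast list 3 of 10 were called higher, namely Dcn (1.13 ± 0.19), Lum (1.36 ± 0.20) and Serpinf1 (1.93 ± 0.29), which encode matrix or secreted proteins of fibroblasts. Without the stromal members in the sums these values were -4.66, -2.75 and -0.29, and 0 of 10 were higher and 8 lower. Against other barcodes with under 1% smooth muscle UMIs, 0 were higher and 3 lower. Carmn, Tspan2 and Myocd, genes of smooth muscle, had 0 UMIs in the member sums, with Carmn at 163, 156 and 159 CPM in others, so no fold is given.

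Among all genes outside the lists, the highest log2 fold changes belonged to Pla2g2d (9.05 ± 0.66), a secreted phospholipase, Clec4b1 (9.02 ± 0.79), a C-type lectin, Tnip3 (8.59 ± 1.12), Fcrls (8.50 ± 0.45), an Fc receptor-like protein known from microglia, Cd209d (8.46 ± 0.75), Lrrc25, Tlr8 and the collagen receptor Lair1 (8.04 ± 0.56). Fcrls had 705, 366 and 254 CPM in members and 0.813, 0.881 and 1.45 CPM in others. The members of hashtag 1 thus held the most and those of hashtag 3 the least.

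Members differed in MHC class II, the measure used to split them. H2-Aa, H2-Ab1, H2-Eb1 and Cd74 together made up a median of 1.65% of gene UMIs, with a range of 0 to 10.8%. In 66 members all 4 genes were seen, and in 6 there was none. Split at the median, 45 members were class II high and 46 low, and the sums of barcodes with a ratio-called hashtag held 12, 10 and 23 high barcodes and 7, 12 and 20 low ones in hashtags 1, 2 and 3. Of the 15 stromal members 1 was class II high and 14 were low. Class II high members had a median of 2880 gene UMIs and low ones 3691.

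**Figure D4:**
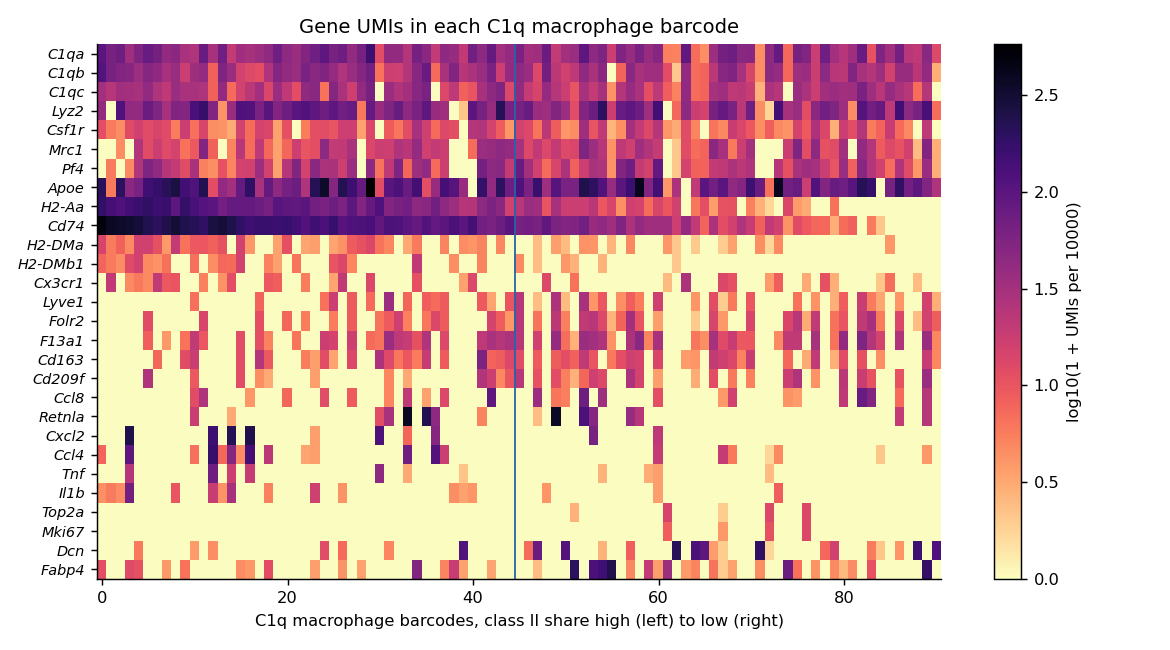
Each column is 1 of the 91 C1q macrophage barcodes, ordered from high class II share on the left to low on the right, and each row a gene, with colour giving log10(1 + UMIs per 10000 gene UMIs); the blue line is the median split. C1q genes fill nearly every column, Cxcl2, Retnla and Top2a fill a few columns, and most of the darkest Dcn columns lie to the right of the line.

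With 583 genes testable in so few cells, 2 genes (0.343%) were higher and 4 (0.686%) lower in class II high than in class II low macrophages. The higher genes were H2-DMb1 and H2-DMa, which the split did not use. The filter on low counts asked for enough UMIs in at least 3 of the sums. Both genes met it in the class II high sums alone, and Lum, named below, in the class II low sums alone. For such genes only the direction seen could be tested. Without that filter 1 gene was higher and 0 were lower among 12047. Of the class II list outside the split, only these and Ctss could be tested, and Ctss did not pass (0.74 ± 0.25, adjusted p = 0.24). H2-DMb1 had 354, 383 and 298 CPM in class II high members and 39.9, 16.9 and 9.90 CPM in class II low members (log2 fold change 4.15 ± 0.60, edgeR adjusted p = 0.0034). H2-DMa had 648, 418 and 433 CPM in class II high members and 120, 67.4 and 59.4 CPM in class II low members (2.65 ± 0.44, adjusted p = 0.0099). Each of these 2 genes was higher in 3 of 3 animals. The lower genes were Fabp4, Lum, Plpp3 and Aebp1, genes of endothelial and stromal cells, Lum at 0, 34.8 and 54.1 CPM in class II high members and 559, 421 and 356 CPM in class II low members (-3.44 ± 0.60, adjusted p = 0.0099). Of the 558 Fabp4 UMIs of all members, 472 came from the 15 stromal ones. Mrc1 (-0.22 ± 0.21, adjusted p = 0.76) and Pf4 (0.12 ± 0.21, adjusted p = 0.86) did not pass. Leaving out hashtag 1 or hashtag 2 left 0 calls by edgeR, with 79 and 34 genes at an unadjusted p under 0.05, and leaving out hashtag 3 gave 12 higher and 18 lower. DESeq2 called 0 genes, with 36 at an unadjusted p under 0.05.

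Without the stromal members, the other 76 were split at their own median. Those with a ratio-called hashtag gave sums of 9, 9 and 20 high and 8, 11 and 17 low barcodes in hashtags 1, 2 and 3. H2-DMb1 (4.06 ± 0.56, edgeR adjusted p = 0.0015) and H2-DMa (2.72 ± 0.43, adjusted p = 0.0062) were again the 2 genes higher (0.468% of 427). They also passed when any 1 animal was left out, with 2 animals in each fit and the same filter on low counts. H2-DMb1 had edgeR adjusted p values of 0.00084, 0.00067 and 0.0050 without hashtags 1, 2 and 3. The 2 genes lower (0.468%) were F13a1 and the chemokine Ccl8. F13a1 had 823, 761 and 546 CPM in class II high members and 2018, 1863 and 1179 CPM in class II low members (-1.22 ± 0.20, adjusted p = 0.0062). Ccl8 had 118, 266 and 358 CPM in class II high members and 550, 942 and 1028 CPM in class II low members (-1.69 ± 0.30, adjusted p = 0.011). Both were lower in 3 of 3 animals, but F13a1 did not pass without hashtag 1 (-1.15, adjusted p = 0.082), and both calls depended on the split: with the same 76 members divided at the median of all 91, F13a1 stood at -0.98 (adjusted p = 0.29) and Ccl8 at -0.71 (adjusted p = 0.74). Folr2 (-1.33 ± 0.31, adjusted p = 0.056) and the lectin Clec10a (-1.87 ± 0.40, adjusted p = 0.051) lay near the threshold without passing. These 4 genes were named after their values were seen.

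**Figure D5:**
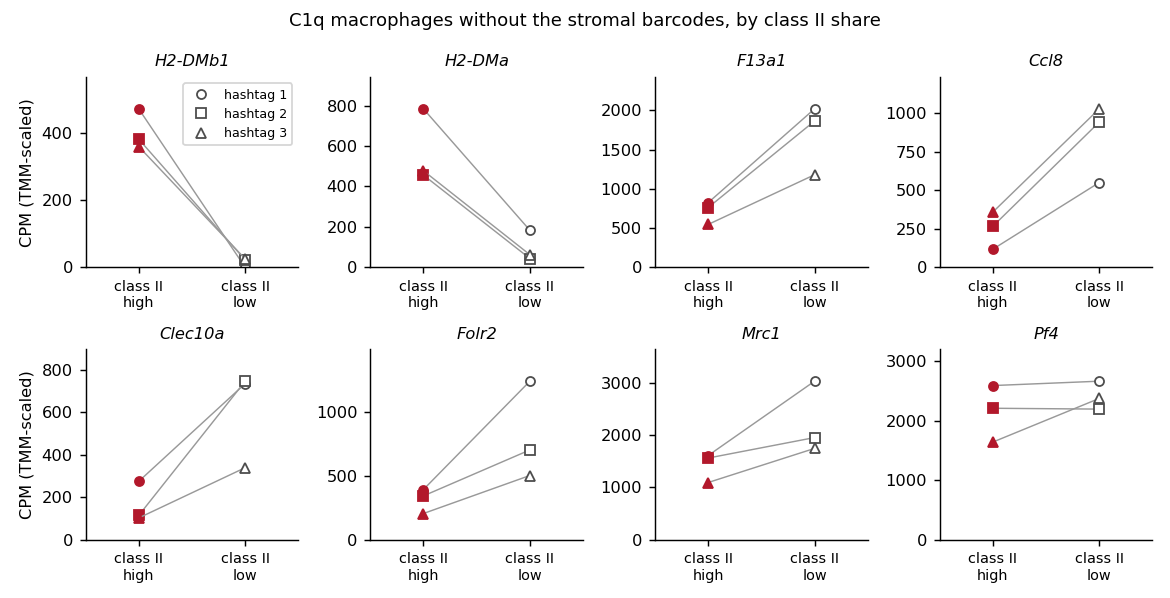
TMM-scaled CPM of 8 genes in class II high (filled red) and class II low (open grey) C1q macrophages without the 15 stromal barcodes, with lines joining the sums of the same animal. H2-DMb1 and H2-DMa are higher and F13a1 and Ccl8 lower in class II high members of all 3 animals, while Pf4 overlaps.

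A small set of members carried most of the Cxcl2, Ccl4, Tnf and Cxcl10 transcripts. Cxcl2, a neutrophil attractant, gave 360 UMIs in 10 of 91 barcodes, of which 6 held 340, with 107 in the highest, and it was seen in 0.57% of other barcodes. All 10 carried hashtag 3 by the ratio caller, and 8 of the 10 were class II high. Ccl4 had 203 UMIs in the 10 Cxcl2 barcodes and 47 in the other 81, Tnf 50 and 5, and the interferon-induced chemokine Cxcl10 had 48 and 0. Cd83, a marker of activated antigen-presenting cells, was in 10 of 10 Cxcl2 barcodes and in 21 of the other 81. Pooled Csf1r was alike, at 888 CPM in Cxcl2 barcodes (exact 95% interval 595 to 1275) and 902 CPM in the others (801 to 1012). It was uneven within the Cxcl2 barcodes. The 6 with most Cxcl2 held 0 to 3 Csf1r UMIs each, and the rest held 9, 5, 4 and 1. Hspa1a was at 1714 CPM (1295 to 2226) in Cxcl2 barcodes and 215 CPM (167 to 272) in the others, and Fos at 827 CPM (545 to 1203) and 280 CPM (225 to 344). These pooled levels came from few cells: 42 of the 56 Hspa1a UMIs lay in 2 barcodes with 3 and 20 Cxcl2 UMIs, and 3 of the 4 barcodes with most Cxcl2 had 0 UMIs of Hspa1a and Fos. Intervals cover counting error only.

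Retnla, which encodes a secreted resistin-like protein of alternatively activated macrophages, was as uneven. Its sums were 176, 1981 and 2687 CPM in members and 15.6, 2.20 and 4.25 CPM in others (log2 fold change 7.88 ± 1.04, adjusted p = 0.0013). It gave 514 UMIs in 16 barcodes, of which 6 held 470, spread over all 3 hashtags by the ratio caller. The tested sums rest on few cells. All Retnla UMIs of the hashtag 2 sum lay in a single barcode with 92. Barcodes with 174 and 140 held most of those in the hashtag 3 sum. Resident genes stood higher in these barcodes, with Lyve1 at 922 CPM in Retnla barcodes and 233 CPM in the others, F13a1 at 2286 and 803 CPM, and Timd4 at 184 and 36.7 CPM. Cx3cr1 went the other way, at 92.2 CPM in Retnla barcodes and 320 CPM in the others. Cxcl2 and Retnla were both seen in 5 barcodes.

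Cycling was rare. Of 91 members 4 held at least 3 UMIs of Mki67, Top2a, Birc5, Cdk1, Ccnb2 and Ube2c, with 5 to 47 such UMIs each, 34 of them from Top2a and 28 from Mki67 over the 4. These barcodes were large, with a median of 8579 UMIs against 3117 in the other 87, and all 4 were class II low. In the sums, Top2a was at 0, 0 and 151 CPM and Mki67 at 0, 0 and 135 CPM in members of hashtags 1, 2 and 3, so their calls as higher (2.52 ± 0.63 and 2.51 ± 0.64, adjusted p = 0.030 each) rest on hashtag 3 and were lost with DESeq2 (adjusted p = 0.74 and 0.70) and against other barcodes with under 1% smooth muscle UMIs (0.21 and 0.23, adjusted p = 0.86 and 0.84).

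For description, 25 barcodes met the myeloid, T, B and smooth muscle conditions with 0 C1q UMIs. Only 4, 2 and 4 of them carried hashtags 1, 2 and 3 by HTODemux, so they were not tested. In 10 of them the neutrophil genes S100a8 and S100a9 reached 5 UMIs, with 3328 S100a9 UMIs in all. The other 15 had a median of 2 myeloid UMIs, which is the threshold itself, against 28 in members. Whether these 15 are myeloid cells was not tested. Csf1r gave 8 UMIs in 3 of the 25, Mrc1 1 UMI, and Pf4, Folr2 and Cd163 gave 0, against 319, 532, 659, 167 and 198 UMIs in the 91 C1q macrophages. Ccr2 was seen in 5 of the 25 (9 UMIs) and in 6 of the 91 (7 UMIs).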

How the data were processed

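Ascending thoracic aortas of 3 mice, marked by hashtags, were read as 1 droplet run. The deposited values are raw UMI counts per gene or hashtag and barcode, and per the file headers Cell Ranger 6.0.1 made the matrix. The submitters' processing notes name mm10, Cell Ranger and Seurat 4.0.5. Annotation and barcode filter are not given in the sources used here. Of 32285 gene IDs, 32158 matched RefSeq and 31436 had the same symbol.

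Each hashtag was read as 1 animal. Barcodes were assigned with HTODemux (Seurat 5.3.0, quantile 0.99) or by a ratio caller, which asked for a top hashtag at least 4 SD over background and the next at most 2. No doublet caller was run, and barcodes with several hashtags by the caller in use stay among the members but out of the sums; 25 of the 31 members with several by HTODemux are single by the ratio caller and enter the class II sums. Counts were summed per hashtag and arm and entered edgeR's quasi-likelihood test (version 4.0.16, R 4.3.3) with hashtag as a block, since both arms come from the same animal. Deviations of the paired sums correlated at 0.104, -0.0020 and 0.0491 over 883 genes. DESeq2 1.42.0 was an alternative. The 36 genes of the rule were left out of the tests. CPM beside tests are TMM-scaled, and elsewhere are UMIs per 1000000 gene UMIs. The SE beside an edgeR fold change was computed from that fold change and the F statistic of the test.

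On simulated data for the comparison with other barcodes (11019 genes), 42 of 50 genes raised by 2 and 50 of 50 raised by 3 on the log2 scale were called, 8 and 9 of 50 lowered by as much, and 0 of 10819 unchanged genes. In that setting few falls of low genes were called. Every simulated gene had the same relative spread between samples, and both groups came from 1 profile. In the data 14.5% of genes were called, and Ccl4 had 312 ± 485 CPM (SD) in member sums. The simulation thus gives no error rate for these data. For the class II comparison (699 genes), 5 of 618 unchanged genes were called.

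TMM factors were taken over genes of at least 100 CPM, chosen after the simulation showed a shift with TMM over all genes. The class II comparison used ratio calls and at least 5 barcodes per arm, chosen after the data were seen, because HTODemux calls with at least 10 left 1 animal. The members and lists were chosen with earlier results of these data known. Genes are named by a rule: up to 4 per list (2 for other cell types) with the largest change among those called and alike in all animals, the 8 highest and 8 lowest outside the lists, and list members that did not pass. Other named genes serve as description. Barcode counts gave exact binomial and Poisson 95% intervals (scipy 1.17.1), which cover counting error only.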

Additional observations from a re-analysis of the deposited data

How the results depend on the processing

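The share of C1q macrophages averaged 1.45% and was 3.25% with ratio calls, 2.33% with haemoglobin under 1%, 0.372% over all barcodes, and 1.10 to 1.67% leaving out 1 animal. Against other barcodes, 1055 genes were higher and 588 lower; leaving out 1 animal gave 0 to 461 higher and 0 to 216 lower, other barcodes with smooth muscle genes under 1% gave 699 higher, and TMM over all genes gave 951 lower. Without the replicate block these counts were 1382 and 861. Of 78 named genes, 71 lost a call in some setting, 70 of them without hashtag 3, and 11 outside the settings that leave out an animal. The log2 fold change took the other sign without the stromal members in the sums for C1s1 (-3.22), C3 (-3.09), Clec3b (-3.66), Ctsl (-1.20), Dcn (-4.66), Gsn (-2.53), Lum (-2.75), Pi16 (-2.99), Serpinf1 (-0.29) and Serping1 (-2.86). It did so against other barcodes with smooth muscle genes under 1% for C3 (-1.50), Cd36 (-1.18), Cd93 (-1.44), Dcn (-0.92), Fth1 (0.67), Gsn (-1.15), Lum (-0.58), Mylk (0.11), Pparg (-1.67), Serpinf1 (-0.0025) and Serping1 (-0.78), with ratio calls for Cd36 (-0.17), and without hashtag 3 for Mki67 and Top2a, which have 0 UMIs in the remaining member sums (-7.52 to 2.71 and -7.76 to 2.74 leaving out 1 animal). In the class II comparison (2 higher, 4 lower), DESeq2 gave 0 and 0, no filter on low counts 1 and 0, a stricter HTODemux quantile 4 and 16, HTODemux calls 6 and 11, the upper against the lower part of the class II share, with the middle left out, 0 and 0, at least 10 barcodes per arm 0 and 0, C1q of at least 5 UMIs 8 lower, and no replicate block 2 lower. Without the stromal members 2 were lower, and 0 when split at the median of all members. Leaving out 1 animal gave 0 to 12 higher and 0 to 18 lower; without the stromal members as well, 4 to 12 higher and 7 to 8 lower, with Fabp4 at 0.63 without hashtag 1. Counts of 0 came with 87 genes at an unadjusted p under 0.05 for that split by edgeR, 79 for at least 10 barcodes, and 36 for DESeq2. The cause was not tested. The stricter barcode filter (1000 UMIs, 10% mitochondrial) could not be fitted in either comparison, and neither could any setting against C1q-negative myeloid barcodes. Depth limits genes with few UMIs: 60 members make up the sums of the comparison with other barcodes, and 84 those of the class II comparison.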

Other observations

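Ighm, the immunoglobulin mu heavy chain, was seen in 46 of 91 members (50.5%) and in 4.44% of other barcodes, or 27.5% and 1.75% after thinning to 1000 UMIs, although the B cell gene Ms4a1 had 0 UMIs in members. No member held more than 4 Ighm UMIs, so it was spread thinly rather than held by a few barcodes. In the sums it stood at 374, 301 and 198 CPM in members and 74.7, 18.9 and 129 CPM in others. It did not pass (log2 fold change 1.88 ± 0.56, edgeR adjusted p = 0.063), while DESeq2 called it (1.84, adjusted p = 0.0080).

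Mmp12, macrophage elastase, which cuts elastin, gave 49 UMIs in 9 of 91 members (9.89%), against 0.40% of other barcodes, with 15 in the highest barcode and 0 UMIs in members of hashtag 1. It was too sparse to test. Ighm and Mmp12 were singled out after their values were seen.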
